A study of Homo sapiens with 4 samples.

Results

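Apart from 1 pseudogene, the genes described here encode subunits of the 4 respiratory chain complexes and of ATP synthase (complex V). They are the 13 protein-coding genes of the mitochondrial genome and 79 nuclear genes whose symbols name structural subunits of these complexes, taken by symbol alone from the 20263 genes of the table, 92 genes in all. The nuclear genes comprised 36 of complex I, 4 of complex II, 9 of complex III, 11 of complex IV, NDUFA4 included, and 19 of ATP synthase. The last group includes ATP5F1EP2, which matched by symbol but is annotated as a processed pseudogene. RNA was sequenced from HCT116, a long-established cell line from a human colorectal carcinoma, labelled as wild type. The HJ-4 group received 32 µM HJ-4, a semisynthetic amide made from the pepper alkaloid piperine, and the DMSO group received 0.1% DMSO, the solvent, both for 24 h. The dose is that of the labels and of the study's methods, while a legend of the study gives a lower one for the transcriptome. Each condition had 2 libraries, called replicates 1 and 2 here. The labels describe a culture split into 2 groups and do not say whether libraries sharing a condition were grown separately. The study's methods speak of biological replicates, in a number that differs from the labelled libraries, and which of them were sequenced is not given. The p-values therefore cover the variation among these 4 libraries only, and that variation may be technical.

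Complexes I to IV pass electrons from NADH and succinate through coenzyme Q and cytochrome c to oxygen. Complexes I, III and IV pump protons as they do so, and ATP synthase uses the returning protons to make ATP. Subunits come from both genomes: the mitochondrial DNA is transcribed into long polycistronic RNAs that are cut mostly at tRNAs, while the nuclear subunits are transcribed one by one and imported. Complex II is built from nuclear genes alone.

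The ends of some mitochondrial genes are shown because the genes differ there. In several, the DNA does not encode a whole stop codon, and the poly(A) tail completes it. The last 24 bases of each gene shown are given 5′ to 3′ on the coding strand (GRCh38, forward strand). Capitals mark the bases of the last codon that the DNA encodes.

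MT-ND2 (chrM:5488-5511): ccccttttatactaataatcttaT
MT-CYB (chrM:15864-15887): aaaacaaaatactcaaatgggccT
MT-ND3 (chrM:10381-10404): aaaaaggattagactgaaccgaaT
MT-CO1 (chrM:7422-7445): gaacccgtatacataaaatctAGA
MT-ND5 (chrM:14125-14148): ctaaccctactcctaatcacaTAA

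MT-ATP8 and MT-ATP6, which encode 2 membrane subunits of ATP synthase from 1 mRNA, share 46 bases, written in capitals within 10 flanking bases on each side (GRCh38, forward strand). The capitals open with the ATG of MT-ATP6 and close with the TAG of MT-ATP8.

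MT-ATP8/MT-ATP6 (chrM:8517-8582): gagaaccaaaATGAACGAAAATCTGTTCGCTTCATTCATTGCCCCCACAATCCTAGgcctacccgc

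The sources used here do not say how reads in this overlap were assigned, so the split between MT-ATP8 and MT-ATP6 is uncertain. GENCODE version 44 also names nuclear copies of every mitochondrial gene, between 2 for MT-ATP8 and 48 for MT-CO1. None of these copies is in the table, and the treatment of reads that match both places is not given either.

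The libraries held 29769568 to 34359889 counts. Epithelial keratins were abundant (KRT8 at 1702 to 1903 CPM, counts relative to library sizes scaled by the trimmed mean of M-values), EPCAM stood at 244 to 268 CPM and 7 of the 11 listed colorectal epithelium markers were tested. Their log2 fold changes ran from −0.16 to 1.96. Of the 7, 1 was higher with HJ-4 at an unadjusted p under 0.05 (edgeR), 14.3% against 15.9% of all tested genes. CDH1 and KRT18 had the smallest p (adjusted p = 0.202 and 0.401, edgeR). The differentiation markers CDX1 (0 counts in every library), VIL1 and CEACAM5 (at most 0.127 CPM), LGALS4 (at most 0.440 CPM) and KRT20 (at most 0.570 CPM) were at or near 0. The defining leukocyte and endothelial markers PTPRC, CD3E and PECAM1 were at or near 0, although the listed fibroblast marker COL1A1 read 58.2 to 62.6 CPM and the macrophage-associated CD68 33.9 to 50.4 CPM. Endothelial VWF and KDR and fibroblast PDGFRB were not called (adjusted p = 0.411, 0.807 and 0.794, edgeR). CD68 was higher in both HJ-4 libraries (log2 fold change 0.38, adjusted p = 0.261), and its part in the results below was not tested.

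All 13 mitochondrial genes had a negative log2 fold change of HJ-4 over DMSO, but none passed the test. Across the 92 genes, 0 were called at an adjusted p under 0.05 by edgeR's quasi-likelihood test with Benjamini-Hochberg adjustment over all genes tested, where 0.0498% of the 14044 tested genes were called. Limma-voom also called 0, where it called 9 of the 14044 tested genes. DESeq2's Wald test called 5, MT-ND2, MT-CYB, MT-ATP8 and NDUFB3 as lower and NDUFB9 as higher, where it called 4.09% of all tested genes. At an unadjusted p under 0.05, edgeR gave 0 mitochondrial genes higher and 5 lower in HJ-4 cells. Of the 77 nuclear genes tested, 3 were higher and 2 were lower. The share over all tested genes was 7.93% in the higher direction and 7.93% in the lower, so that the nuclear counts were below that share in both directions. The nuclear count of lower genes depended on the scaling. It was 10 when scaled by total counts (9.88% of all tested genes) and 10 with the scaling computed on nuclear genes alone (9.06%). It was 13 without DMSO replicate 2 (8.90%). The mitochondrial count of 5 was 10 without DMSO replicate 1 (7.62%), 4 without DMSO replicate 2 (8.90%), 2 without HJ-4 replicate 1 (3.26%) and 3 without HJ-4 replicate 2 (4.50%). The nuclear count of higher genes was 4 without DMSO replicate 1 (9.23%), 5 without DMSO replicate 2 (11.9%), 3 without HJ-4 replicate 1 (3.94%) and 2 without HJ-4 replicate 2 (3.79%), the shares again being those of all tested genes in the same direction and fit.

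In the fits that left out 1 library, MT-ND4 and MT-CO1 turned to 0.04 and 0.02 without DMSO replicate 2, and MT-ND5 to 0.001 without HJ-4 replicate 1. The other 10 mitochondrial genes stayed negative in all 4 such fits.

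The mitochondrial median log2 fold change was −0.25, the nuclear one −0.02 and that of all 14044 genes 0.004. The fold changes ran between −0.62 (MT-ND2) and −0.08 (MT-CO1) for mitochondrial genes, and between −0.58 (NDUFB3) and 0.57 (NDUFB9) for nuclear genes. DMSO replicate 2 set much of the mitochondrial value: the median was −0.12 without it and −0.37 without DMSO replicate 1. Both HJ-4 libraries lay below both DMSO libraries in 8 of the 13 mitochondrial genes and above them in 0. The shares of all tested genes were 25.6% below and 25.2% above. Mitochondrial genes are transcribed together in long RNAs, so the 13 are not independent observations. Among the nuclear genes, 22 lay wholly below and 15 wholly above, and the libraries of the other 40 overlapped. Scaled by total counts, the nuclear split was 29 below and 10 above, beside 29.5% and 21.6% of all tested genes, and 11 mitochondrial genes lay below.

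**Figure D1:**
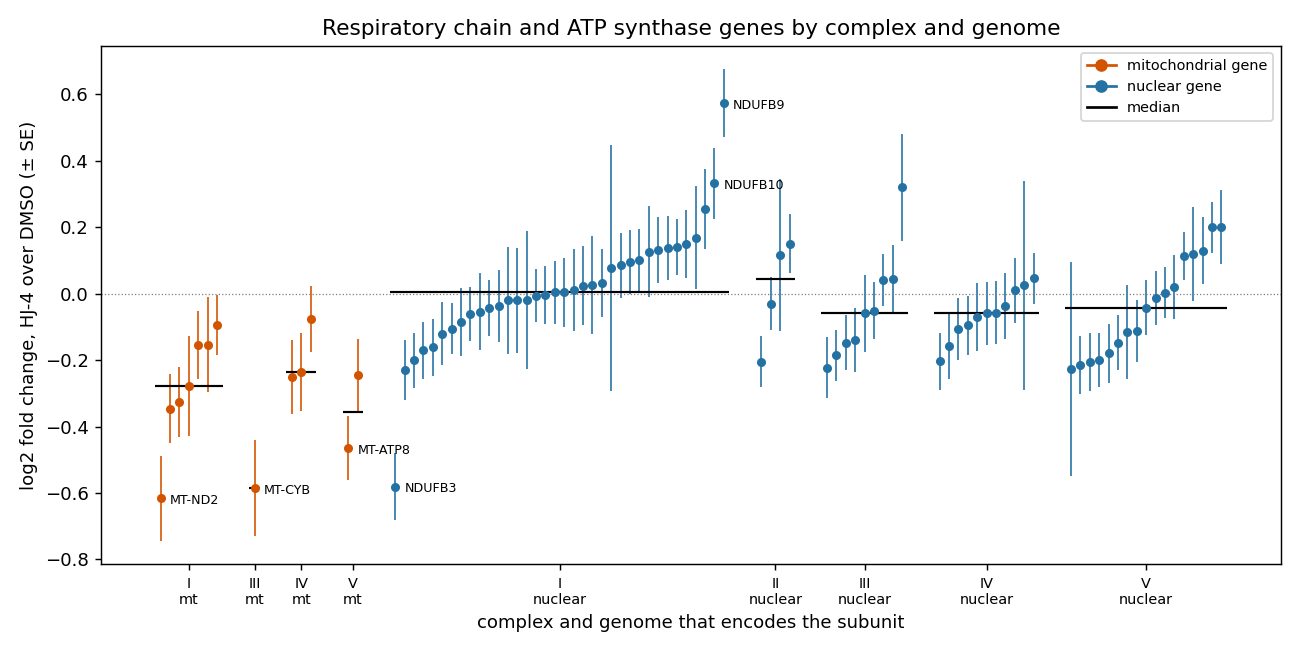
Log2 fold change of HJ-4 over DMSO with its standard error for the 90 tested genes, ordered by value within each complex and genome, with black bars for the medians. The 13 mitochondrial genes (orange) all lie below 0, with NDUFB3 and NDUFB9 at the ends of the nuclear genes (blue).

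The 13 mitochondrial genes together took 6.01% and 6.41% of all counts in HJ-4 libraries, against 6.59% and 7.73% in DMSO libraries. Both HJ-4 shares were thus lower, although HJ-4 replicate 2 lay closer to DMSO replicate 1 than the DMSO libraries lay to each other. The nuclear genes took 0.837% and 0.827% in HJ-4 libraries and 0.882% and 0.834% in DMSO libraries. The ratio of mitochondrial to nuclear counts was 7.18 and 7.75 in HJ-4 libraries and 7.47 and 9.27 in DMSO libraries, which overlap. In bulk RNA, fewer mitochondrial transcripts per cell, fewer cells that hold them and a change in the rest of the RNA cannot be told apart.

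**Figure D2:**
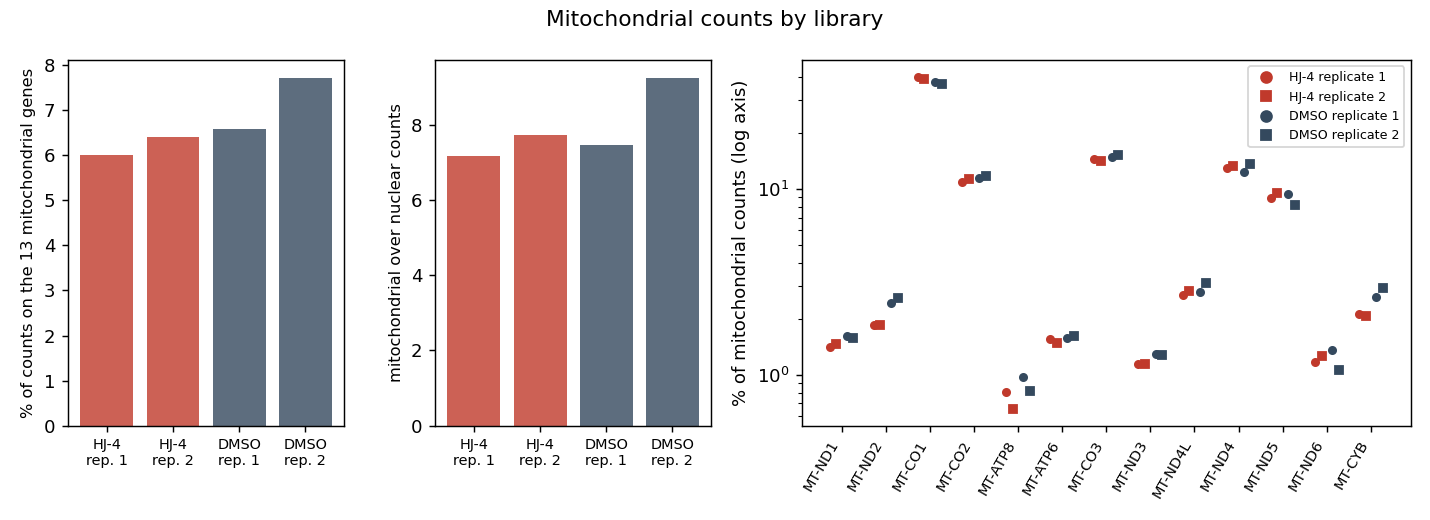
Percent of all counts on the 13 mitochondrial genes (left), ratio of mitochondrial to nuclear subunit counts (middle) and percent of mitochondrial counts per gene on a log axis (right) in each HJ-4 and DMSO library. DMSO replicate 2 is the highest library at 7.73% and a ratio of 9.27.

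Among the 7 mitochondrial subunits of complex I, which form its proton-pumping membrane arm, MT-ND2 (chrM:4470-5511) was the furthest below DMSO. It had 1118 and 1206 CPM in HJ-4 libraries against 1585 and 1978 CPM in DMSO libraries. The groups did not overlap, with a log2 fold change of −0.62 (SE 0.13, adjusted p = 0.173, edgeR). MT-ND1, which lies beside the quinone-binding site, had 851 and 950 CPM with HJ-4 and 1051 and 1207 CPM with DMSO (−0.33, adjusted p = 0.267). MT-ND3 had 689 and 741 CPM with HJ-4 and 840 and 979 CPM with DMSO (−0.35, adjusted p = 0.247). The 3 genes were separate between conditions, and each had an unadjusted p under 0.05.

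The other complex I genes of the mitochondrial genome overlapped between conditions. MT-ND4, an antiporter-like subunit, had 7871 and 8610 CPM in HJ-4 libraries and 8015 and 10320 CPM in DMSO libraries. MT-ND4L, whose gene overlaps that of MT-ND4 by 7 bases, had 1636 and 1830 CPM with HJ-4 and 1820 and 2382 CPM with DMSO. MT-ND5, another antiporter-like subunit, had 5438 and 6134 CPM with HJ-4 and 6109 and 6253 CPM with DMSO. In all 3 the higher HJ-4 library lay above the lower DMSO library. MT-ND6 is the only one of the 13 encoded on the other strand, and it had 712 and 817 CPM with HJ-4 and 890 and 812 CPM with DMSO. Its log2 fold change was −0.15 (SE 0.10), and its libraries overlapped. Since the strand setting is not given, its counts may include reads of RNA from the opposite strand.

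**Figure D3:**
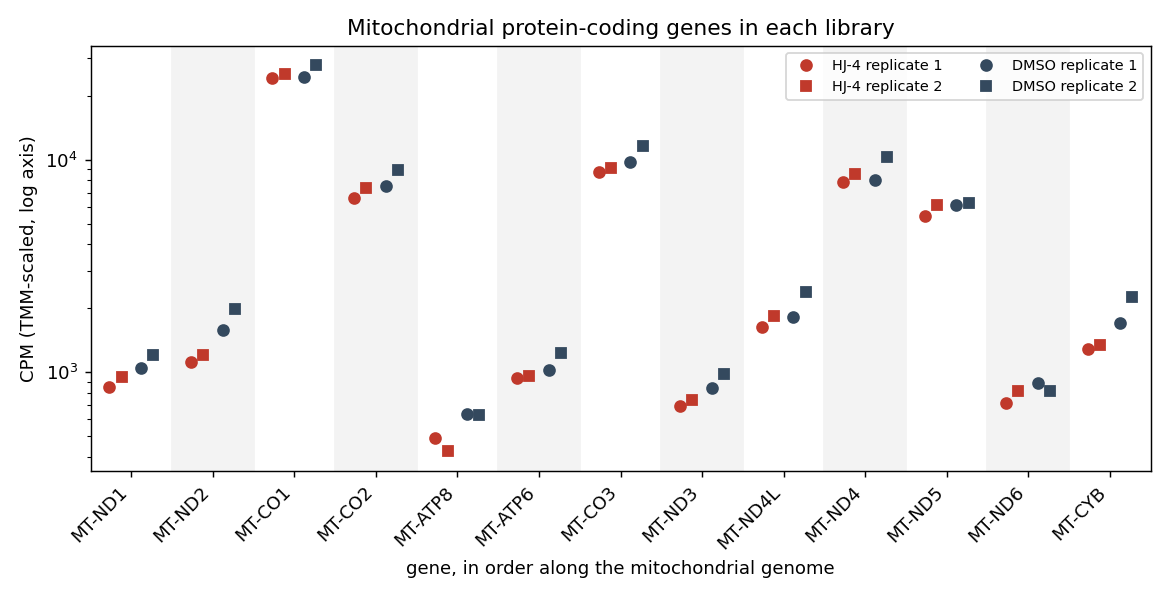
CPM of the 13 mitochondrial protein-coding genes in each library, on a log axis, in their order along the mitochondrial genome, with HJ-4 libraries (red) left of DMSO libraries (dark). MT-ND2, MT-CYB and MT-ATP8 are separate between conditions, with 1206 against 1585 CPM, 1346 against 1710 CPM and 491 against 628 CPM in the nearest libraries, while MT-CO1 overlaps.

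MT-CYB (chrM:14747-15887) encodes cytochrome b, the only complex III subunit made in mitochondria and the one that holds both quinone sites. It had 1289 and 1346 CPM in HJ-4 libraries against 1710 and 2246 CPM in DMSO libraries, with a log2 fold change of −0.59 (SE 0.14, adjusted p = 0.208). Without DMSO replicate 1 it was the 1 gene of the 92 that was called, at −0.77 and an adjusted p of 0.0444, in a fit that called 0.612% of all tested genes and in which the lone DMSO library was assumed to vary like the HJ-4 pair. Without DMSO replicate 2 its log2 fold change was −0.38.

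The 3 mitochondrial subunits of complex IV, the catalytic core of cytochrome c oxidase, were the most abundant of the 92 transcripts per length. On the TPM scale (a share of counts corrected for transcript length), MT-CO1 averaged 31870 with HJ-4 and 33720 with DMSO, MT-CO3 22650 and 27020, and MT-CO2 20200 and 23850. MT-CO1, which holds the oxygen-reducing heme and copper site, had 24270 and 25310 CPM in HJ-4 libraries and 24430 and 27880 CPM in DMSO libraries, an overlap with a log2 fold change of −0.08 (SE 0.10). MT-CO2, which takes electrons from cytochrome c, had 6593 and 7347 CPM with HJ-4 and 7493 and 8915 CPM with DMSO. MT-CO3 had 8763 and 9155 CPM with HJ-4 and 9712 and 11600 CPM with DMSO. MT-CO2 and MT-CO3 were lower in both HJ-4 libraries by log2 values of −0.24 and −0.25 (adjusted p = 0.399 and 0.353).

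MT-ATP8 had 491 and 424 CPM in HJ-4 libraries against 634 and 628 CPM in DMSO libraries. Its log2 fold change was −0.46 (SE 0.10, adjusted p = 0.173), and it ranged from −0.56 to −0.38 when each library was left out in turn. MT-ATP6, the proton channel subunit read from the same mRNA, had 941 and 964 CPM with HJ-4 and 1027 and 1231 CPM with DMSO (−0.25, SE 0.11, adjusted p = 0.351). Both genes were separate between conditions, and neither was called by edgeR.

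The mitochondrial genes also differed in their share of the mitochondrial counts, a measure that does not depend on the nuclear genes. MT-ND2 made up 1.84% and 1.86% of these counts with HJ-4 and 2.43% and 2.59% with DMSO. MT-CYB made up 2.13% and 2.08% with HJ-4 and 2.62% and 2.94% with DMSO. MT-CO1 stood at 40.01% and 39.04% with HJ-4 and 37.4% and 36.5% with DMSO, the only share of the 13 that was higher in both HJ-4 libraries. The shares sum to the same total in each library, so a lower share of one gene raises the others. The 6 genes with an incomplete stop codon, MT-ND2, MT-CYB and MT-ND3 shown above together with MT-ND1, MT-CO3 and MT-ND4, had a median log2 fold change of −0.34 (range −0.62 to −0.15), and the other 7 one of −0.24 (range −0.46 to −0.08). These ranges overlap.

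Per length, the mitochondrial genes spanned a wide range although 12 of them share a strand. In HJ-4 cells the lowest were MT-ND1 at 1867 TPM, MT-ND2 at 2210 TPM and MT-CYB at 2290 TPM, below MT-ATP6 at 2772 TPM and MT-ND6 at 2885 TPM. In DMSO cells the lowest were MT-ND1 at 2348 TPM, MT-ND6 at 3220 TPM and MT-ATP6 at 3296 TPM, with MT-ND2 at 3399 TPM and MT-CYB at 3448 TPM. The rank of MT-ND6 carries the strand limit given above. The tested nuclear subunits were all lower, between 9.88 TPM for NDUFA9 and 1007 TPM for UQCRH in HJ-4 cells. In DMSO cells they lay between 8.81 TPM for NDUFA9 and 1062 TPM for COX6A1.

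Of the 36 nuclear subunits of complex I, 3 had an unadjusted p under 0.05, 2 higher and 1 lower, against 15.9% of all tested genes. The 3 are accessory subunits of the membrane arm, and 29 of the 36 genes encode accessory subunits. NDUFB3 (chr2:201071433-201085750) had 25.3 and 24.4 CPM in HJ-4 libraries against 38.8 and 35.6 CPM in DMSO libraries, a log2 fold change of −0.58 (SE 0.10, adjusted p = 0.146). The HJ-4 libraries were close to each other and well below DMSO. Its exons overlap those of HYCC2 on the opposite strand, which had 43.3 and 41.1 CPM with HJ-4 and 57.0 and 46.5 CPM with DMSO. Without a stated strand setting, reads of the 2 genes cannot be told apart in the overlap. 

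NDUFB9 went the other way, with 124 and 127 CPM in HJ-4 libraries against 90.8 and 78.5 CPM in DMSO libraries (log2 fold change 0.57, SE 0.10, adjusted p = 0.149). It overlaps the opposite-strand genes TATDN1 and MTSS1. TATDN1 read 44.57 and 44.03 CPM with HJ-4 and 46.2 and 48.5 CPM with DMSO. MTSS1 read 7.84 and 7.85 CPM with HJ-4 and 6.31 and 9.01 CPM with DMSO. Reads of these genes cannot be told apart in the overlap without a stated strand setting, and their part in the NDUFB9 values was not tested. NDUFB10, which overlaps no other gene of the table, had 47.0 and 52.5 CPM with HJ-4 and 38.0 and 41.0 CPM with DMSO (0.33, SE 0.11, adjusted p = 0.260).

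The remaining nuclear genes of complex I were spread around 0. The median of the 36 was 0.004, with 19 positive and 17 negative log2 fold changes. NDUFS5, the most abundant nuclear complex I transcript per length, had 120 and 128 CPM with HJ-4 and 143 and 134 CPM with DMSO (−0.16, adjusted p = 0.421). NDUFA9, the least abundant per length though not by CPM, had 44.1 and 39.1 CPM with HJ-4 and 32.4 and 41.6 CPM with DMSO, which overlap.

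Complex II, succinate dehydrogenase, joins the citric acid cycle to the chain. SDHA (chr5:218303-257082), the flavin-bearing subunit that oxidises succinate, had 175 and 184 CPM in HJ-4 libraries against 207 and 208 CPM in DMSO libraries. Its log2 fold change was −0.20 (SE 0.08, adjusted p = 0.306, edgeR), small but separate between conditions. SDHC, a membrane anchor, had 156 and 156 CPM with HJ-4 and 149 and 133 CPM with DMSO (0.15, adjusted p = 0.462). SDHB, the iron-sulfur subunit, had 117 and 119 CPM with HJ-4 and 123 and 118 CPM with DMSO. SDHD, the other anchor, had 113 and 112 CPM with HJ-4 and 128 and 79.6 CPM with DMSO. SDHB and SDHD overlapped between conditions. The median of the 4 genes was 0.04, and −0.13 without DMSO replicate 2.

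In complex III the 9 nuclear genes had a median of −0.06, with 0 genes at an unadjusted p under 0.05. UQCRC1, a core protein on the matrix side, had 245 and 262 CPM in HJ-4 libraries against 312 and 280 CPM in DMSO libraries (−0.22, SE 0.09, adjusted p = 0.329). UQCRB, a small subunit near the quinone site, had 251 and 247 CPM with HJ-4 and 290 and 276 CPM with DMSO (−0.19, SE 0.08, adjusted p = 0.327). UQCRC2, the partner of UQCRC1, lay in the other direction at 173 and 165 CPM with HJ-4 and 114 and 156 CPM with DMSO (0.32, SE 0.16, adjusted p = 0.398), and its DMSO libraries were 1.36-fold apart. The Rieske protein gene UQCRFS1 (87.9 and 91.7 CPM with HJ-4, 102 and 84.7 CPM with DMSO) and the hinge protein gene UQCRH (273 and 273 CPM with HJ-4, 297 and 268 CPM with DMSO) overlapped.

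The 11 nuclear genes of complex IV had the narrowest range of any complex's nuclear genes, with log2 fold changes of −0.20 to 0.05 and a median of −0.06. COX7B had 85.8 and 85.0 CPM with HJ-4 and 103 and 93.7 CPM with DMSO (−0.20, SE 0.09, adjusted p = 0.340). COX6C had 144 and 145 CPM with HJ-4 and 173 and 149 CPM with DMSO (−0.16, SE 0.10, adjusted p = 0.483). COX6A1, the most abundant of the nuclear complex IV transcripts per length, had 263 and 271 CPM with HJ-4 and 305 and 269 CPM with DMSO, which overlap. Without DMSO replicate 1, the nuclear medians of complexes III, IV and V turned positive, at 0.02, 0.006 and 0.03.

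In ATP synthase, 17 of the 19 nuclear genes were tested, with a median of −0.04. ATP5MGL, a copy of ATP5MG, and ATP5F1EP2, a processed pseudogene copy of ATP5F1E, each had 0 and 0 counts in HJ-4 libraries. In DMSO libraries ATP5MGL had 0 and 1 and ATP5F1EP2 had 1 and 2 counts, and neither was tested. ATP5F1A, the alpha subunit of the F1 head, had 313 and 308 CPM in HJ-4 libraries against 262 and 278 CPM in DMSO libraries (0.20, SE 0.08, adjusted p = 0.312). ATP5F1B, the catalytic beta subunit, had 806 and 781 CPM with HJ-4 and 745 and 722 CPM with DMSO (0.11, SE 0.07, adjusted p = 0.481). The epsilon subunit gene ATP5F1E had 130 and 127 CPM with HJ-4 and 137 and 127 CPM with DMSO. ATP5PD, a subunit of the peripheral stalk, had 143 and 135 CPM with HJ-4 and 163 and 156 CPM with DMSO (−0.20, SE 0.08, adjusted p = 0.326). The alpha and beta genes were separate and higher with HJ-4, ATP5PD was separate and lower, and ATP5F1E overlapped.

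The 3 genes of the c-ring, ATP5MC1, ATP5MC2 and ATP5MC3, encode the same mature protein. ATP5MC1 had 47.2 and 45.7 CPM with HJ-4 and 44.91 and 39.97 CPM with DMSO, and ATP5MC2 132 and 159 CPM with HJ-4 and 127 and 126 CPM with DMSO. ATP5MC3 had 163 and 177 CPM with HJ-4 and 204 and 191 CPM with DMSO. ATP5MC3 was thus lower and the other two higher in both HJ-4 libraries, with log2 fold changes of −0.21, 0.13 and 0.20 for ATP5MC3, ATP5MC1 and ATP5MC2, and none had an unadjusted p under 0.05. These 3 were singled out after their values were seen.

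**Figure D4:**
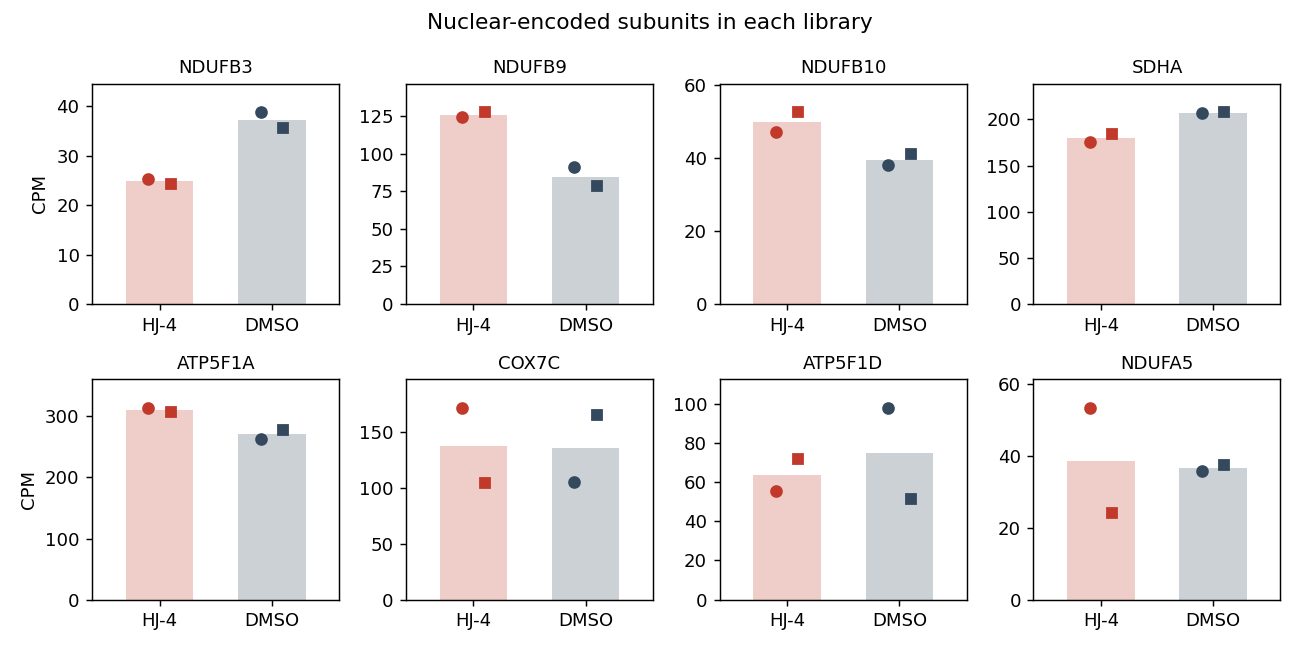
CPM of 8 nuclear-encoded subunits in each library (points, circles for replicate 1 and squares for replicate 2) with the mean of each condition (bars), HJ-4 left and DMSO right. NDUFB3, NDUFB9, NDUFB10, SDHA and ATP5F1A are separate between conditions, whereas in COX7C, ATP5F1D and NDUFA5 the replicates of a condition differ more than the conditions do.

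Some nuclear genes varied more within a condition than between conditions. The 2 libraries of a condition differed by over 1.5-fold in 4 of the 77 tested nuclear genes and in 0 of the 13 mitochondrial genes. COX7C, a small subunit of complex IV, had 172 and 104 CPM with HJ-4 and 106 and 166 CPM with DMSO. ATP5F1D, the delta subunit of the F1 head, had 55.5 and 71.8 CPM with HJ-4 and 97.7 and 51.5 CPM with DMSO. NDUFA5, an accessory subunit of complex I, had 53.2 and 24.0 CPM with HJ-4 and 35.8 and 37.4 CPM with DMSO. SDHD, given above, was the other. Their libraries overlapped in each case, and their standard errors on the log2 scale, 0.23 to 0.37, were the largest of the 90 genes.

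Nuclear subunit promoters are shown because regulators shared by these genes are known, among them NRF1, the ETS factor GABP and YY1. RefSeq promoters (GRCh38.p14, 250 bases before to 50 after a start site) were matched for 63 of the 79 nuclear genes. The letters GCGCANGCG of an NRF1-type motif, on either strand, were found in 34.9% of the 63 genes, against 16.1% of tested genes and 9.02% of all genes with a promoter. The ETS core CCGGAAG was in 33.3% of the 63 genes, against 21.1% of tested genes and 12.2% of all genes. The YY1 letters AAGATGGCG were in 14.3% of the 63 genes, against 4.37% of tested genes and 2.14% of all genes. The ETS core ends with the AAG that opens the YY1 letters, so these matches can overlap by 3 bases. A match is a description of the sequence alone. Below, capitals mark every match. SDHA had 4 NRF1-type matches, ATP5PF, a peripheral stalk gene that shares its start region with GABPA, had all 3 motifs, and NDUFB3 had none.

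SDHA promoter (chr5:218070-218369, forward strand): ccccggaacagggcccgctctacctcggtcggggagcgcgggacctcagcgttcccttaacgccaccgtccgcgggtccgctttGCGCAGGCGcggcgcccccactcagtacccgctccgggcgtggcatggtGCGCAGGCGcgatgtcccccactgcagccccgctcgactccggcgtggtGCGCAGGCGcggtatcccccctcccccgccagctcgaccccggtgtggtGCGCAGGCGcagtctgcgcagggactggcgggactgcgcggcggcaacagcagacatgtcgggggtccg
ATP5PF promoter (chr21:25735005-25735304, reverse strand): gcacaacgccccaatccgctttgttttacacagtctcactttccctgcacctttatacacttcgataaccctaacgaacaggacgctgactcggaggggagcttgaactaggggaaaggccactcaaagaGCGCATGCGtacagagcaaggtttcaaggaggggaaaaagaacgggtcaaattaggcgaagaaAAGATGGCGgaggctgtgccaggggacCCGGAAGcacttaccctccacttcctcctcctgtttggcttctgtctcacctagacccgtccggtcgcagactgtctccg
NDUFB3 promoter (chr2:201071751-201072050, forward strand): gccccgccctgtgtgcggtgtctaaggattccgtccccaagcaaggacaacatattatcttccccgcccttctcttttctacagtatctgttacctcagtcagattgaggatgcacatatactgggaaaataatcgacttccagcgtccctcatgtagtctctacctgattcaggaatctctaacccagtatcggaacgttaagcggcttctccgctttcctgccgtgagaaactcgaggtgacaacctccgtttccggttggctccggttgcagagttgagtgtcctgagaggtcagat

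ATP5PF had 47.5 and 48.7 CPM in HJ-4 libraries against 52.5 and 56.5 CPM in DMSO libraries (−0.18, SE 0.09, adjusted p = 0.398). Genes with and without the motifs had similar median fold changes, while the larger groups without a match spanned wider ranges. The median log2 fold change was −0.02 in the 22 genes with an NRF1-type match and −0.006 in the 41 without one. It was −0.006 in 21 genes with the ETS core and −0.02 in 42 without, and −0.03 in 9 genes with the YY1 letters and −0.002 in 54 without. Genes with a match ran from −0.22 to 0.20 (NRF1-type), −0.20 to 0.20 (ETS) and −0.22 to 0.17 (YY1). For each motif, the genes without a match ran from −0.58 to 0.33. NDUFB9 had no matched promoter and is in none of these groups.

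The counts in the following lists are to be read against 15.9% of all tested genes with an unadjusted p under 0.05 in either direction. The regulators themselves were described from a list of 8, of which 7 were tested. None had an unadjusted p under 0.05. PPRC1, a coactivator related to PGC-1α, had 52.4 and 49.9 CPM with HJ-4 and 44.6 and 43.1 CPM with DMSO (0.22, SE 0.09, adjusted p = 0.321). NRF1 had 27.1 and 20.1 CPM with HJ-4 and 29.3 and 28.3 CPM with DMSO (−0.29, SE 0.16, adjusted p = 0.445). The list had a median of −0.05.

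Among 14 genes that copy and transcribe mitochondrial DNA, the unadjusted p was under 0.05 for 1 higher and 1 lower gene, and the median was 0.003. TFAM, which packages mitochondrial DNA and opens its promoters, had 42.7 and 39.3 CPM in HJ-4 libraries against 50.5 and 49.4 CPM in DMSO libraries. Its log2 fold change was −0.28 (SE 0.09, adjusted p = 0.270). MTERF3, a negative regulator of mitochondrial transcription in mice, had 19.96 and 18.19 CPM with HJ-4 and 14.5 and 16.2 CPM with DMSO (0.31, SE 0.12, adjusted p = 0.309). Both were separate between conditions and neither was called.

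Among 18 genes that cut, modify or stabilise mitochondrial RNA, 2 reached an unadjusted p under 0.05, both lower, and the median was −0.07. FASTKD5, needed to process mitochondrial mRNAs that are not flanked by tRNAs, had 10.1 and 9.80 CPM in HJ-4 libraries against 14.3 and 18.4 CPM in DMSO libraries. Its log2 fold change was −0.72 (SE 0.16, adjusted p = 0.186 by edgeR and 0.0357 by DESeq2), and its exons overlap those of UBOX5 on the same strand. TRMT10C, part of mitochondrial RNase P, which cuts at the 5′ end of tRNAs, had 19.4 and 17.1 CPM with HJ-4 and 23.1 and 26.3 CPM with DMSO (−0.44, SE 0.12, adjusted p = 0.238).

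Among 54 assembly factors of the complexes, 5 reached that p, with 1 higher and 4 lower, 9.26% of the list, and the median was 0.005. TMEM70, which assists ATP synthase assembly, had 19.4 and 19.3 CPM in HJ-4 libraries against 30.7 and 25.8 CPM in DMSO libraries (−0.55, SE 0.12, adjusted p = 0.187 by edgeR and 0.0349 by DESeq2). COX16, a complex IV assembly factor whose exons overlap a readthrough gene, had 17.7 and 18.9 CPM with HJ-4 and 24.8 and 22.3 CPM with DMSO (−0.36, SE 0.11, adjusted p = 0.251).

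Coenzyme Q and cytochrome c carry electrons between the complexes. In a list of 15 genes for cytochrome c and coenzyme Q synthesis, the same p was reached by 1 gene upwards and 2 downwards, with a median of −0.06. COQ8A, an atypical kinase-like protein of coenzyme Q synthesis, had 46.3 and 46.4 CPM in HJ-4 libraries against 79.3 and 80.4 CPM in DMSO libraries. Its log2 fold change was −0.78 (SE 0.08, adjusted p = 0.0794 by edgeR and 9.77e-11 by DESeq2). COQ10B, a coenzyme Q-binding protein, had 39.4 and 39.8 CPM with HJ-4 and 31.7 and 32.2 CPM with DMSO (0.31, SE 0.09, adjusted p = 0.240).

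Among 10 other dehydrogenases that deliver electrons to coenzyme Q, 2 genes reached it, both higher, with a median of 0.06. SQOR, which oxidises hydrogen sulfide, had 40.2 and 38.8 CPM in HJ-4 libraries against 26.9 and 27.2 CPM in DMSO libraries (0.55, SE 0.09, adjusted p = 0.141 by edgeR and 0.00134 by DESeq2). CHDH, choline dehydrogenase, had 26.9 and 28.3 CPM with HJ-4 and 21.1 and 19.7 CPM with DMSO (0.44, SE 0.10, adjusted p = 0.189). CHDH overlaps CACNA1D on the opposite strand.

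Among 18 genes of the citric acid cycle and pyruvate dehydrogenase, 1 gene had an unadjusted p under 0.05, and it was lower. The median was 0.02. PDHB, the beta subunit of pyruvate dehydrogenase, had 41.1 and 42.2 CPM with HJ-4 and 59.4 and 49.5 CPM with DMSO (−0.39, SE 0.12, adjusted p = 0.254). IDH2, mitochondrial isocitrate dehydrogenase, had 72.8 and 76.3 CPM with HJ-4 and 85.5 and 84.0 CPM with DMSO (−0.18, SE 0.08, adjusted p = 0.341).

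Of 12 isoforms and further subunits left out by the symbols used, 8 were tested. UQCRHL, a near copy of UQCRH, had 4.90 and 5.19 CPM with HJ-4 and 3.82 and 3.26 CPM with DMSO (0.51, SE 0.17, adjusted p = 0.271), and how its reads were divided from those of UQCRH is uncertain. COX6B2, a testis isoform of a complex IV subunit, had 3.76 and 3.93 CPM with HJ-4 and 5.51 and 4.98 CPM with DMSO (−0.45, SE 0.16, adjusted p = 0.285). The tissue-specific isoforms COX4I2, COX6A2 and COX7B2 had 0 counts in every library.

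Mitochondrial ribosomal proteins and import channels were compared as other nuclear genes of the organelle. In the 82 ribosomal protein genes, 11 had an unadjusted p under 0.05, of which 4 were higher and 7 lower, with a median of −0.02. That is 13.4% of the list, below the 15.9% of all tested genes. MRPL36, a small protein of the large subunit, had 8.87 and 7.97 CPM in HJ-4 libraries against 17.3 and 17.6 CPM in DMSO libraries (−1.05, SE 0.12, adjusted p = 0.0857 by edgeR and 3.18e-06 by DESeq2). MRPS10, of the small subunit, had 62.9 and 60.6 CPM with HJ-4 and 47.5 and 49.2 CPM with DMSO (0.35, SE 0.09, adjusted p = 0.205). 

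In the 20 import channel genes, 3 reached that p, with 2 higher and 1 lower, and the median was 0.08. TIMM13, a chaperone of the intermembrane space, had 26.3 and 27.1 CPM with HJ-4 and 22.2 and 22.5 CPM with DMSO (0.26, SE 0.09, adjusted p = 0.291). TOMM6, a small subunit of the outer membrane channel, had 1.03 and 1.05 CPM with HJ-4 and 46.8 and 1.26 CPM with DMSO, so that its log2 fold change of −4.53 rests on DMSO replicate 1 alone. Its exons overlap another gene on the same strand.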

How the data were processed

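The data are 4 RNA sequencing libraries of HCT116 cells, 2 per condition. The authors deposited 1 table of whole-number counts per gene, without normalisation. The study's methods name Trimmomatic, STAR, GRCh38 and featureCounts, whereas the submitters' notes name Trimmomatic, RSEM, HISAT2 and bedtools. The counter, annotation and strand setting behind the table are not given in the sources used here. Library columns were matched by the library names in the labels.

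Symbols, positions and canonical transcript lengths came from GENCODE version 44 on GRCh38 (20148 of 20263 IDs matched). TPM used those lengths. Genes were filtered with filterByExpr (14044 kept), scaled by TMM and tested with edgeR 4.0.16 (glmQLFit, glmQLFTest; R 4.3.3) in a model of condition alone. P-values were adjusted by Benjamini-Hochberg over all genes tested. The study names limma. edgeR was used because the values are counts. The common biological coefficient of variation was 0.157. An exact permutation test of a single value with 2 against 2 libraries cannot go below p = 0.333 (two-sided). The fit was run on simulated data that gave every gene the same dispersion. The planted changes were larger than any of the genes described by complex above, so the simulation does not cover changes of their size. Alternatives were limma-voom 3.58.1, DESeq2 1.42.0, other scalings and filters, the replicate number as a block, and each library left out.

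The gene set, the lists and the rule for named genes were chosen with earlier results of these data known. The rule named all mitochondrial genes. It named nuclear genes with an unadjusted p under 0.05, or with separate libraries and an absolute log2 fold change of at least 0.5. It also named, per complex, the 2 smallest p and the highest and lowest TPM, and the 2 smallest p of each other list. UQCRC2, SDHD, COX7C, ATP5F1D, NDUFA5, ATP5PF, PPARGC1B and the c-ring genes were added after their values were seen. Mitochondrial rRNA genes and nuclear copies of mitochondrial genes were not analysed here. Of the 92 genes, 34 overlap exons of another gene in the table, 20 of the nuclear ones on the opposite strand, and 62 have pseudogenes named in GENCODE, so reads may be shared.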

Additional observations from a re-analysis of the deposited data

How the results depend on the processing

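Over 12 alternatives, 371 of 384 combinations of a named gene and an alternative kept the direction and the side of the threshold, 6 passed the threshold and 7 reversed. No member was called by any of the 12 except under DESeq2's Wald test (5 members) and when a library was left out (0 to 1 member, MT-CYB without DMSO replicate 1). The mitochondrial genes with an unadjusted p under 0.05 and lower with HJ-4 numbered 2 to 10 with a library left out, against 5 in all libraries. The nuclear ones numbered 2 to 5 higher and 1 to 13 lower, against 3 and 2 (the shares of all genes in these fits stand beside the counts by library above). The nuclear count of lower genes was 10 with total counts and 10 with the scaling on nuclear genes, beside the shares given above. It was 5 with DESeq2's Wald test, for which the share of all tested genes at that p was not computed. With a library left out, the mitochondrial median ran from −0.372 to −0.118 and the nuclear median from −0.069 to 0.022. The reversed values all came from leaving out 1 library, with ranges of −0.324 to 0.039 for MT-ND4, −0.198 to 0.001 for MT-ND5, −0.170 to 0.020 for MT-CO1, −0.065 to 0.004 for SDHB, −0.190 to 0.084 for UQCRFS1, −0.123 to 0.022 for UQCRH and −0.094 to 0.011 for ATP5F1E. Where 1 library remained in a condition, it was assumed to vary like the other condition. The cause was not tested. The complex V nuclear median was −0.11 without a filter on low counts, because the untested copies then entered.

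With the replicate number as a block, the nuclear count of lower genes was 1, in a fit whose share at that p was not computed. No member was called in it, where 31 of 14044 tested genes were called. Deviations of same-numbered libraries correlated at −0.04 over 14044 genes, so no effect shared by a number was visible. This value cannot tell whether same-numbered libraries were handled together, and the labels do not say. The block changed no call of a named member, and it called 0 of the 27 genes that the rule named from the other lists. A share of counts without mitochondrial rRNA was not computed, since those genes were not analysed here.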
